A study of Homo sapiens with 12 samples.

Results

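Ribosome footprints and total RNA of the purine and pyrimidine synthesis enzymes were measured in PANC-1 cells, an established human pancreatic cancer cell line, after short inhibition of mTORC1. The group has 10 members among the 20212 genes of the count table, found by gene name: CAD, UMPS and DHODH of the pyrimidine pathway, and PPAT, GART, PFAS, PAICS, ADSL, ATIC and IMPDH2 of the purine pathway. The control cultures received DMSO, the solvent, and the treated cultures received 50 nM rapamycin for 60 min, with 3 cultures in each group. Both groups were the same line, with no other allele or agent named in the labels, so the values describe 1 line at 1 dose and 1 time. Each culture gave 1 library of ribosome-protected fragments (RF) and 1 library of total RNA, which makes 12 libraries. The labels call the cultures biological replicates, so p-values measure the spread between cultures of this line. The study asked which mRNAs change in translation when mTOR is inhibited, and translation efficiency (TE) is the RF level of a gene relative to its total RNA.

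Cells build purine nucleotides stepwise on an activated ribose phosphate and pyrimidine nucleotides by closing the ring before the ribose is attached. Dividing cancer cells use both routes to supply DNA and RNA, and the ribosomal RNA that mTORC1-driven growth needs is a large consumer of nucleotides. mTORC1 is known to act on these routes beyond translation: its kinase S6K phosphorylates CAD, and over hours it raises transcription of one-carbon enzymes that feed purine synthesis.

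The RF libraries held between 278835 and 1574723 counts, of which 296 to 1760 lay on the 10 enzymes. The total RNA libraries held between 78081241 and 94293744 counts, of which 99079 to 120738 lay on them. A gene's counts were scaled within each library type to CPM (counts per 1000000). Where no read was counted, up to 3 counts remain possible, or 2.03 to 9.93 CPM for RF and no more than 0.0385 CPM for total RNA, from counting error only. CPM values are shares of a library, so that fewer cells and less RNA per cell cannot be told apart. Each change in RF, total RNA or TE is therefore relative to the other genes, and a rise or fall shared by all genes would not show. The spread between cultures beyond counting, as a biological coefficient of variation, came to 54.9% for RF and 5.31% for total RNA. The RF library of DMSO replicate 2 correlated least with the other RF libraries, with a median Pearson's r of 0.686 across genes on log2 CPM, where the highest median of a library was 0.804. In total RNA, DMSO replicates 1 and 2 held the most counts but detected 16840 and 16858 genes, against 19751 to 19847 in the others. In RF, DMSO replicates 1 and 2 and rapamycin replicate 3 detected 12567 to 12723 genes, and the others 14247 to 15402. The split in total RNA falls partly along treatment, and its part in the comparisons between treatments was not tested. The labelled duct origin was checked on total RNA: KRT8, KRT18 and KRT19 stood at 1963 to 3630 CPM and SOX9 at 82.4 to 93.2 CPM, while KRT7 and EPCAM stood at 5.41 to 8.27 CPM. Of 15 markers of acinar, endocrine, immune, vascular, fat and fibroblast cells, 14 stayed under 2.5 CPM. The exception, the fibroblast marker COL1A1, stood at 3.61 to 5.42 CPM. The summed level of all 15 was 6.30 to 10.4 CPM in DMSO and 8.75 to 10.1 CPM in rapamycin.

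All 10 enzymes passed the filter on low values, a minimum of 10 counts in all for each library type, and levels between them were compared per length. PAICS had the highest footprint density, with 164 ± 37.5 RF CPM per kb of coding sequence (SD, n = 6 cultures), and DHODH the lowest, with 2.40 ± 2.65. PAICS carries out a pair of middle steps of purine synthesis, and DHODH is the mitochondrial enzyme that oxidizes dihydroorotate. After PAICS, the mean densities were 97.6 for ATIC, 85.2 for ADSL, 84.9 for IMPDH2, 45.5 for GART, 42.4 for UMPS, 28.4 for PPAT, 15.9 for CAD and 11.3 for PFAS, in RF CPM per kb. Neighbours in this order overlapped in their range over the 6 cultures except at 2 places: IMPDH2 lay above GART in every culture, and PFAS above DHODH. The latter boundary rests partly on 0 RF counts of DHODH, in DMSO replicates 1 and 2 and rapamycin replicate 3, and is not firm. Relative to the 13029 tested genes with a coding length, PAICS was at percentile 92.95 of RF density and DHODH at percentile 13.1.

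Total RNA, as the deposited FPKM values (fragments per kb and per 1000000), gave a tighter order. IMPDH2, which commits inosine monophosphate to guanine nucleotides, had 103 ± 3.20 FPKM (SD, n = 6) and PAICS 99.4 ± 2.74. GART followed with 75.1, ADSL with 57.6, UMPS with 32.6, ATIC with 27.3, PFAS with 19.7, PPAT with 18.1, CAD with 18.1 and DHODH with 7.35 FPKM. The boundaries in this order that were free of overlap between cultures lay below PAICS, GART, ADSL, ATIC and CAD. CAD, which joins the first 3 steps of pyrimidine synthesis in a single long protein, was thus close to PPAT and PFAS in transcript level. Over the 6 cultures, the FPKM ranges of IMPDH2, PAICS, GART, ADSL, UMPS and ATIC lay wholly above that of the first purine enzyme, PPAT.

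**Figure D1:**
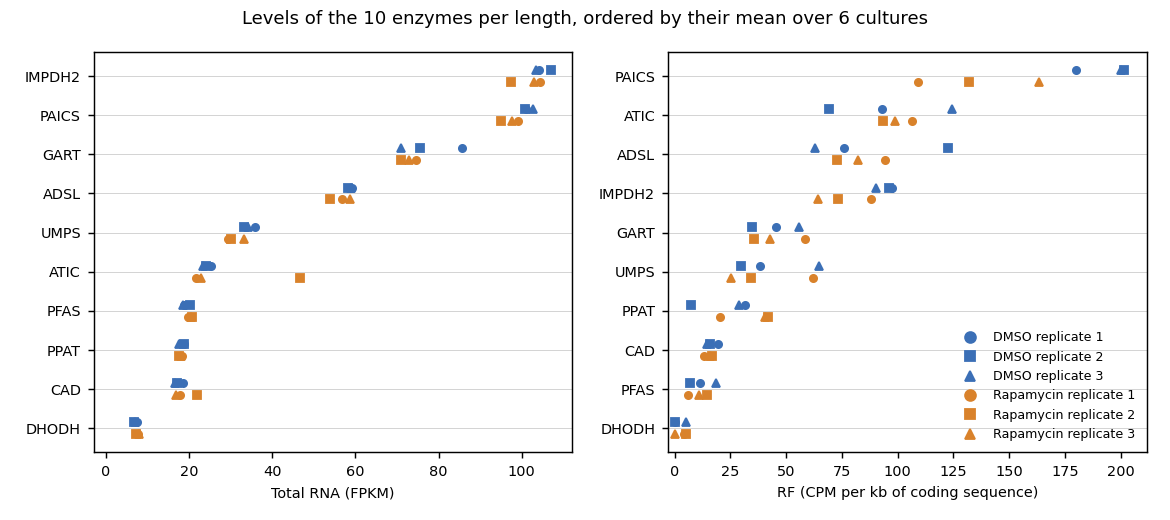
Total RNA in FPKM (left) and RF in CPM per kb of coding sequence (right) of the 10 enzymes, each point a culture, blue for DMSO and orange for rapamycin, with genes ordered by their mean over 6 cultures. The total RNA points farthest from the rest of their gene are ATIC in rapamycin replicate 2 at 46.6 FPKM and GART in DMSO replicate 1 at 85.7 FPKM. RF points spread more widely, with PAICS highest and DHODH lowest.

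ATIC stood apart in the relation of both measures. It catalyses the last 2 steps to inosine monophosphate, and its log2 TE (log2 RF CPM minus log2 total RNA CPM) was 2.06, 1.68 and 2.42 in DMSO and 2.34, 1.51 and 2.18 in rapamycin. These values were the highest of the 10 enzymes in each culture and placed ATIC at percentile 82.4 of the genes tested. The other members lay between percentile 13.7, for DHODH, and percentile 63.4, for UMPS, around a median log2 TE of -0.53 over all genes tested. CAD, PAICS, GART and IMPDH2 were near the middle, at percentiles 53.6, 52.5, 46.6 and 46.2. These TE values have no length term, and the coding part of the transcript differs between genes. In the later annotation used here, ATIC-201 has 1776 coding bases of 1972, PAICS-207 1275 of 6371 and UMPS-201 1440 of 6652. The deposited values imply shorter forms of PAICS-207 and UMPS-201. In DMSO replicate 1, UMPS-201 had 7.42 FPKM at a normalized signal (not divided by length) of 821, close to ATIC-201 with 8.98 and 817. PAICS-207 had 45.9 FPKM, above the 43.2 of PAICS-201 (3339 bases), although PAICS-201 held 58.4% of the gene's signal. The coding shares may therefore not be those of the authors' transcripts, and their part in the order of TE was not tested.

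The mRNA classes known to respond most to mTORC1 begin with a 5′ terminal oligopyrimidine tract (TOP): a C at the first base followed by at least 4 more pyrimidines. Because this feature sits at the very start of the transcript, the first 20 bases of the canonical transcript are shown for PPAT and the 3 purine enzymes whose values stand out below, and for 2 pyrimidine enzymes, from GENCODE's annotation of GRCh37, with the unbroken run of pyrimidines at the 5′ end in capitals.
PAICS, chr4:57302426-57302445, plus strand: agagttctgcctcgcttccc
IMPDH2, chr3:49066812-49066831, minus strand: CTCTgcggcgcggtcctcgg
PPAT, chr4:57301762-57301781, minus strand: agtagctggggccaccctcg
ATIC, chr2:216176782-216176801, plus strand: gccacatcccggcagccctc
CAD, chr2:27440237-27440256, plus strand: agtctctgctgctgccgcca
UMPS, chr3:124449299-124449318, plus strand: Caaacaggcagcgcgcgaca
None of the 10 enzymes matched the TOP definition at its annotated start, where 4.71% of 18736 canonical transcripts of the table did. IMPDH2 came closest, with a run of 4 pyrimidines where the definition needs 5. UMPS began with a C followed by a purine, and the other 8 began with a purine. Only the canonical transcript of each gene was checked. The leading isoform was another one for ADSL (ADSL-201) and, on the normalized signal, for PAICS (PAICS-201). An annotated start need not be the start used in these cells, which was not measured.

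When TE was compared between treatments with edgeR, the quasi-likelihood test called 0 of the 10 enzymes at the adjusted threshold of 0.05, and likewise 0% of all 13329 genes. At an unadjusted p under 0.05, 1 enzyme was called lower, PAICS, where 6.42% of all genes were, and 0 were called higher, where 6.17% were. The log2 fold change in TE was negative for 7 enzymes and positive for 3, with a median of -0.07 against -0.06 over all genes tested. The TE of the 3 rapamycin cultures lay below that of the 3 DMSO cultures for 2 enzymes, PAICS and IMPDH2 (6.18% of all genes), and above for 0 (4.78% of all genes). These counts rest on 10 genes, too few to set them apart from the background shares.

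The first purine enzyme, PPAT (amidophosphoribosyltransferase), transfers an amide nitrogen from glutamine to the activated ribose. Its RF level was 49.0, 11.3 and 44.7 CPM in DMSO and 31.4, 65.0 and 62.9 CPM in rapamycin. DMSO replicate 2 was low, with 9 counts, and the groups overlapped. Total RNA was 72.2, 69.9 and 66.8 CPM in DMSO and 69.3, 66.6 and 69.1 CPM in rapamycin. The log2 fold change in TE was 0.61 ± 0.53 (SE, 95% interval -0.53 to 1.75, adjusted p = 0.677 by edgeR), and without 1 culture it ranged from 0.11 (without DMSO replicate 2) to 1.10 (without DMSO replicate 3). The gene lies on chromosome 4 (57259528 to 57301781, minus strand), back to back with PAICS, with 125 bases between the annotated gene spans.

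GART and PFAS act next. GART (chromosome 21, 34876238 to 34915797, minus strand) is a trifunctional enzyme used at 3 separate steps, and its RF level was 138, 105 and 169 CPM in DMSO and 177, 108 and 129 CPM in rapamycin. The means, 137 ± 32.0 and 138 ± 35.2 CPM (SD, n = 3 each), were nearly equal. Its log2 fold change in TE was 0.05 ± 0.28 (SE), with a 95% interval of -0.54 to 0.65. PFAS (chromosome 17, 8150936 to 8173809, plus strand), which adds a further glutamine nitrogen, had 45.9, 27.6 and 73.8 RF CPM in DMSO and 23.2, 57.8 and 43.0 RF CPM in rapamycin. Its groups overlapped broadly, and the log2 fold change in TE of -0.34 had a 95% interval of -1.37 to 0.68.

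PAICS had a lower RF level in every rapamycin culture than in any DMSO culture. Its RF level was 230, 257 and 255 CPM in DMSO, from 75, 205 and 377 counts, and 139, 169 and 208 CPM in rapamycin, from 168, 140 and 63 counts. The mean went from 247 ± 15.4 to 172 ± 34.9 CPM (SD, n = 3 each), a ratio of 0.695. Total RNA differed far less, with 288, 286 and 284 CPM in DMSO and 279, 277 and 276 CPM in rapamycin, a ratio of 0.969. The log2 TE was -0.31, -0.14 and -0.14 in DMSO and -0.98, -0.70 and -0.39 in rapamycin, without overlap, and the two-sided exact permutation test gave p = 0.1, the smallest that 3 cultures against 3 allow.

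The log2 fold change of PAICS in TE was -0.52 ± 0.20 (SE, 95% interval -0.95 to -0.08), a fold of 0.699. The edgeR quasi-likelihood test gave an unadjusted p of 0.023 and an adjusted p of 0.325, so the difference did not pass the threshold over all genes. This fit, like that of DESeq2, shares 1 variance term per gene between RF and total RNA. With limma voom and a variance by library type, the log2 fold change was -0.60 (unadjusted p = 0.0356, adjusted p = 0.724 by limma voom). In the fit that pairs the RF and total RNA library of each culture, the unadjusted p was 0.0691, at a log2 fold change of -0.51 (adjusted p = 1 by edgeR). The unadjusted p also rose above 0.05 without DMSO replicate 3 (0.0626), rapamycin replicate 1 (0.0877) or rapamycin replicate 2 (0.0658). RF alone gave -0.54 ± 0.25 (SE, adjusted p = 0.9999 by edgeR). DESeq2's Wald test on TE gave -0.63 with an adjusted p of 1.4e-07 and called PAICS alone of the 10 enzymes, where it called 4.38% of 13279 genes lower and 4.93% higher. That call was lost without rapamycin replicate 2 (adjusted p = 0.0584 by DESeq2) and with a replicate block (log2 fold change -0.53, adjusted p = 0.464 by DESeq2), and DESeq2's test of RF alone gave an adjusted p of 0.9995. The direction was the same in all 22 settings tried, with log2 fold changes from -0.71 to -0.38. PAICS, on chromosome 4 (57301907 to 57330744, plus strand), has 7 annotated pseudogenes named after it and PPAT has 2, and the authors counted only uniquely aligned reads, so footprints that also match a pseudogene would be missing.

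**Figure D2:**
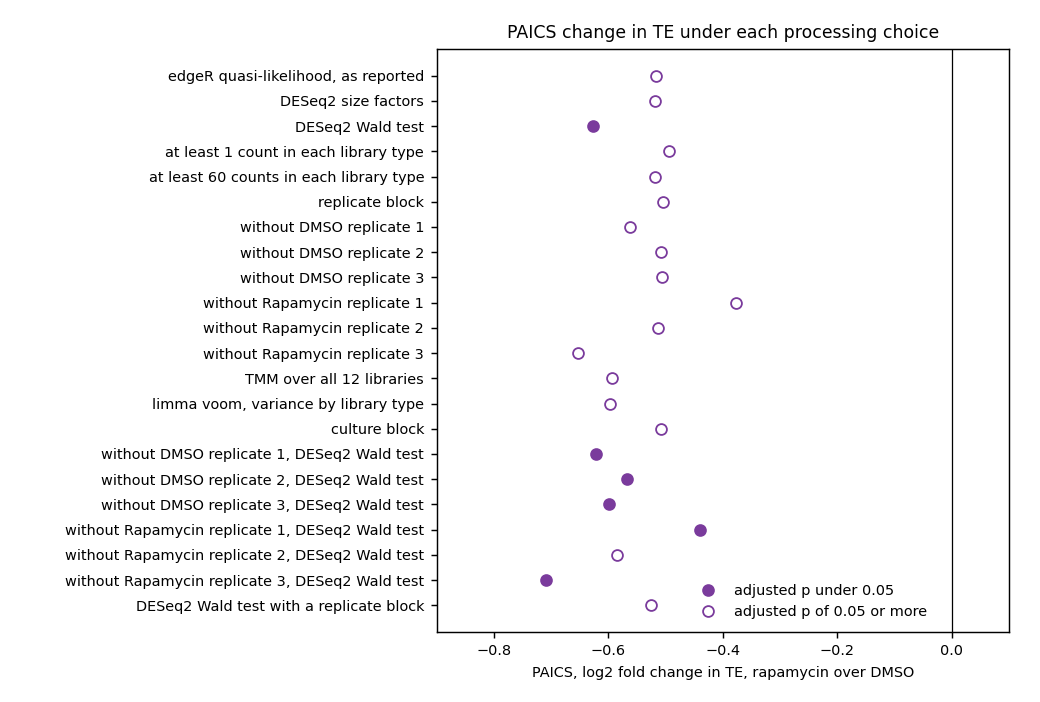
Log2 fold change of PAICS in TE, rapamycin over DMSO, under each of 22 processing choices, 1 per line, filled where the adjusted p was under 0.05 and open otherwise. All points lie below 0, between -0.71 and -0.38, and the filled points are DESeq2's Wald test on all cultures and on 5 of 6 subsets that leave out 1 culture.

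ADSL and ATIC complete the route to inosine monophosphate, and ADSL is used again in the adenine branch. ADSL lies on chromosome 22 (40742465 to 40786467, plus strand) and shares 11.1% of its exonic bases with a same-strand gene of the annotation used here. It had 110, 178 and 91.4 RF CPM in DMSO and 137, 106 and 119 RF CPM in rapamycin. The 3 rapamycin cultures lay inside the range set by DMSO, where replicate 2 was high. The log2 fold change in TE was -0.01 ± 0.30 (SE, 95% interval -0.66 to 0.64). ATIC, on chromosome 2 (216176679 to 216214496, plus strand), had 165, 123 and 221 RF CPM in DMSO and 189, 166 and 175 RF CPM in rapamycin, which also fell inside the DMSO range. The fitted change in TE, on the log2 scale, was -0.12 ± 0.33 (SE, 95% interval -0.83 to 0.59), and that of RF was 0.06.

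IMPDH2 was the other enzyme whose cultures did not overlap. Its RF level was 150, 148 and 140 CPM in DMSO and 136, 113 and 99.3 CPM in rapamycin, with means of 146 ± 5.54 and 116 ± 18.3 CPM (SD, n = 3 each) and a ratio of 0.796. The separation was narrow, since the lowest DMSO culture and the highest rapamycin culture differed by less than the SD of the rapamycin group. Total RNA was 210, 214 and 208 CPM in DMSO and 209, 200 and 207 CPM in rapamycin and overlapped. The log2 fold change in TE was -0.26 ± 0.21 (SE, 95% interval -0.70 to 0.18, adjusted p = 0.641 by edgeR), and the exact permutation test on log2 TE gave p = 0.1. The gene lies on chromosome 3 (49061758 to 49066880, minus strand), and 32.8% of its exonic bases are shared with a same-strand gene of the later annotation used here.

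The RF counts of IMPDH2 and CAD varied least of the group. The chi-square of the RF counts around their treatment's share, divided by its degrees of freedom, is near 1 where counting error alone is present. It was 0.992 for IMPDH2, 1.48 for CAD, 2.15 for DHODH and 2.25 for PAICS. For ATIC, GART, PPAT, PFAS, ADSL and UMPS it lay between 7.31 and 9.16. The 6 latter enzymes therefore varied between cultures of the same treatment well beyond counting, although ATIC and GART had more RF counts in all, 898 and 722, than IMPDH2 with 661.

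In edgeR's test of RF alone, 0 of the 10 enzymes passed an adjusted p of 0.05 (0% of 13329 genes) and 0 an unadjusted p of 0.05, where 1.92% of genes were lower and 1.76% higher. The cultures did not overlap for PAICS and IMPDH2, both lower (4.22% of genes), and for 0 enzymes in the other direction (5.24% of genes). DESeq2's Wald test also called 0 of the 10 in RF alone (0.0075% of genes lower and 0.03% higher). None of the pyrimidine enzymes separated the groups. CAD (chromosome 2, 27440237 to 27466811, plus strand), the target of S6K, had 129, 105 and 97.5 RF CPM in DMSO and 87.7, 113 and 106 RF CPM in rapamycin. Means of 110 ± 16.2 and 102 ± 13.1 CPM (SD, n = 3 each) differed by less than the SD. The log2 fold change of CAD in TE was -0.17 ± 0.25 (SE, 95% interval -0.70 to 0.36, adjusted p = 0.820 by edgeR). In this TE fit, 7 of the 10 enzymes, CAD included, had 95% intervals that excluded a 2-fold change in either direction. PPAT, PFAS and DHODH did not. The fit gives each gene 1 variance term for both library types, although the spread was 54.9% for RF and 5.31% for total RNA. Its intervals may therefore be too narrow. In RF alone, the intervals of PAICS (-1.07 to 0.0016) and UMPS (-1.06 to 0.84) reached past a 2-fold decrease. The RF counts of DHODH (chromosome 16, 72042487 to 72061563, plus strand) were 0, 0 and 9 in the DMSO cultures and 6, 5 and 0 in the rapamycin cultures, so that the libraries at 0 allow up to 9.18 and 3.76 CPM in DMSO and 9.93 CPM in rapamycin. A change of DHODH was not detectable from these counts, with a 95% interval of -1.59 to 2.51 for its log2 fold change in TE. The libraries at 0 were also the RF libraries with the fewest genes detected. DMSO replicate 2 held 881106 RF counts, more than rapamycin replicate 2 with 792690, so the part of depth in the values of 0 was not settled. UMPS (chromosome 3, 124449280 to 124468120, plus strand), which makes uridine monophosphate from orotate, had 55.1, 42.6 and 93.5 RF CPM in DMSO and 89.3, 49.4 and 36.4 RF CPM in rapamycin. Its log2 fold change in TE was -0.01 ± 0.44 (SE), with a 95% interval of -0.95 to 0.93.

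**Figure D3:**
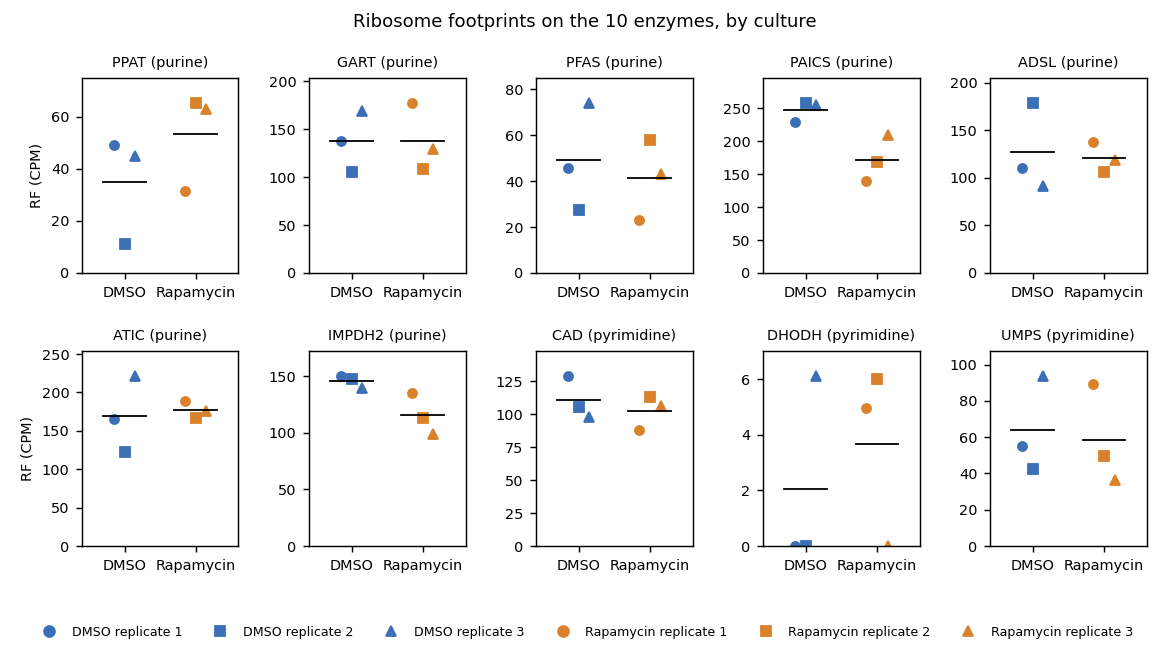
RF level in CPM of each enzyme in the 3 DMSO (blue) and 3 rapamycin (orange) cultures, with a line at each group's mean and every vertical axis starting at 0. PAICS and IMPDH2 are the panels in which the groups do not overlap, and DHODH is at 0 in 3 cultures.

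Summed over the 7 purine enzymes, RF was 888, 850 and 995 CPM in DMSO and 833, 785 and 837 CPM in rapamycin, a ratio of means of 0.898 without overlap. This sum was not tested, because the members were chosen with results known. Without PAICS and IMPDH2, a subset taken after their values were seen, the other 5 summed to 508, 445 and 600 CPM in DMSO and 558, 503 and 529 CPM in rapamycin, with overlap and a ratio of 1.02. The 3 pyrimidine enzymes summed to 184, 148 and 197 RF CPM in DMSO and 182, 169 and 142 RF CPM in rapamycin, and the groups overlapped.

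**Figure D4:**
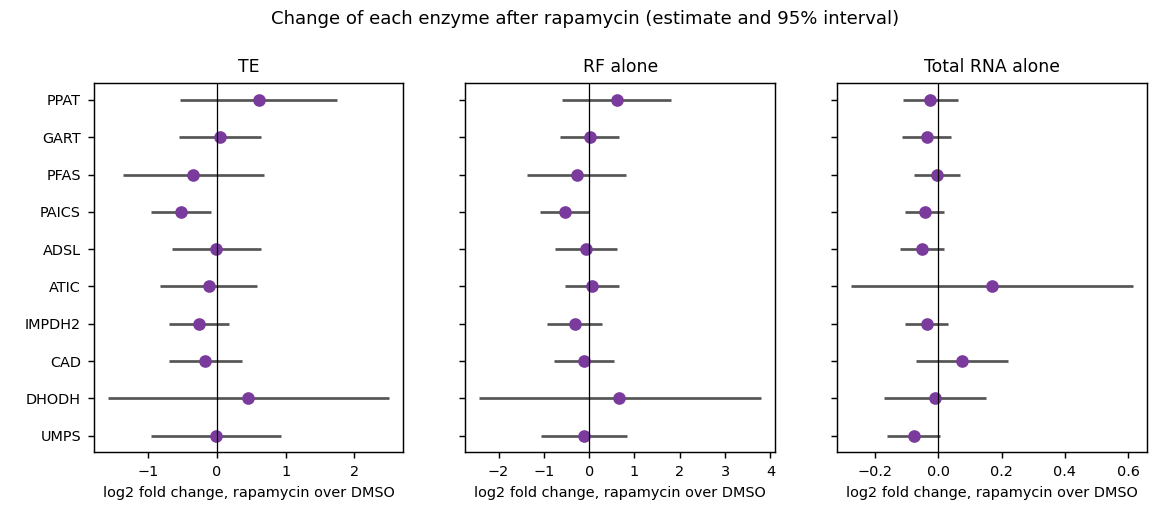
Log2 fold change of each enzyme, rapamycin over DMSO, in TE, in RF alone and in total RNA alone (points, with 95% intervals as lines); the horizontal axes differ between panels. In TE, the interval of PAICS (-0.95 to -0.08) is the one that lies wholly below 0, and total RNA intervals are narrow except for ATIC.

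Total RNA of the enzymes differed little between treatments. In edgeR's test of total RNA, 0 of the 10 passed an adjusted p of 0.05 (0% of 13329 genes), and 0 passed an unadjusted p under 0.05 in either direction, where 2.51% of genes were lower and 3.32% higher. The Wald test of DESeq2 likewise gave 0 calls (0.03% of genes lower and 0.188% higher). The 3 rapamycin cultures lay below the 3 DMSO cultures for PAICS, ADSL and UMPS, where 6.76% of genes did, and above for 0, where 8.08% did. UMPS had 61.5, 62.0 and 61.3 CPM in DMSO and 58.1, 56.2 and 60.5 CPM in rapamycin, a ratio of 0.946 and a log2 fold change of -0.08 (adjusted p = 0.766 by edgeR). ADSL had 144, 142 and 144 CPM in DMSO and 139, 134 and 142 CPM in rapamycin. The 3 differences were at most 0.08 on the log2 scale. On log2(FPKM + 1), limma-trend called 0 of the 10 enzymes at an adjusted p under 0.05 (0.00885% of 11300 genes). At an unadjusted p under 0.05 limma called UMPS only, where 4.87% of genes passed.

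ATIC and CAD had a log2 fold change above 0 in total RNA through a single library. ATIC stood at 40.1, 39.1 and 41.8 CPM in DMSO and 37.9, 59.1 and 39.2 CPM in rapamycin, so that rapamycin replicate 2 was 1.49-fold above the mean of the other 5 libraries. CAD stood at 144, 141 and 133 CPM in DMSO and 142, 163 and 136 CPM in rapamycin, 1.17-fold above in the same library. Without rapamycin replicate 2, the log2 fold change in total RNA went from 0.17 to -0.07 for ATIC and from 0.07 to -0.01 for CAD. That library also had 365 of 10278 well-counted genes (3.55%) more than 0.3 on the log2 scale above the mean of the others, where each of the other 5 had between 1 and 10. ATIC ranked 62 from the top among those genes, and the part that this library's other differences have in the ATIC value was not tested. For the other 8 enzymes this library lay between 0.927-fold and 1.01-fold of the rest.

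The deposited isoform values show which ATIC transcripts were higher there. The coding transcript ATIC-201 held 33.5% of the gene's FPKM, and stood at 11.0 FPKM in rapamycin replicate 2 and at 8.16 to 9.55 in the other 5 libraries. ATIC-206, a short transcript with no defined coding sequence, stood at 15.8 FPKM in that library and at 2.53 to 6.36 in the others. ATIC-213, a retained-intron transcript, stood at 9.78 FPKM against 4.76 to 7.08. Short transcripts weigh heavily in FPKM, and the assignment of fragments to isoforms is an estimate.

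**Figure D5:**
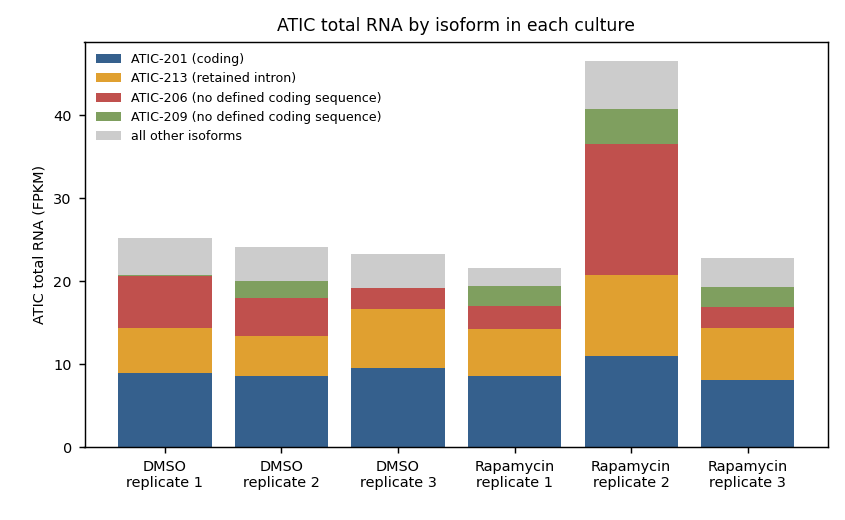
Total RNA of ATIC in FPKM in each of the 6 cultures, stacked by isoform, with isoforms under 5% of the gene's FPKM joined as all other isoforms. Rapamycin replicate 2 reaches 46.6 FPKM, and more of its excess lies in ATIC-206, at 15.8 FPKM, than in any other part of the bar, while the coding ATIC-201 stands at 11.0 FPKM.

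The share of the leading isoform in the gene's FPKM was compared for each enzyme. It did not overlap between treatments for 3 of 10 enzymes, lower in rapamycin for PFAS and DHODH and higher for GART, each with an exact permutation p of 0.1, the smallest possible with n = 3 each. Among 11255 tested genes with more than 1 isoform, 4.91% were lower and 5.06% higher by the same measure. The leading share of GART, its full-length transcript GART-203 coding for 1010 residues, was 48.4% ± 2.44 in DMSO and 50.5% ± 0.122 in rapamycin (SD). By culture it was 45.6%, 49.7% and 49.8% in DMSO and 50.4%, 50.4% and 50.6% in rapamycin, so most of the difference lay in DMSO replicate 1. The leading share was 64.0% ± 2.12 and 58.1% ± 1.98 for PFAS, and 73.3% ± 5.76 and 64.5% ± 4.28 for DHODH, in the same order. On the normalized fragment signal, which does not divide by length, 0 of the 10 were free of overlap (4.92% of genes lower and 5.52% higher). A shorter GART transcript, GART-201, codes for 433 residues and held 15.8% of the gene's FPKM. GART-218, of 457 bases and with no defined coding sequence, stood at 20.5 FPKM in DMSO replicate 1 and at 10.6 to 11.8 in the others. UMPS had no clear leading isoform. By mean FPKM it was UMPS-208, with no defined coding sequence, at 24.9% of the gene's FPKM, and the coding UMPS-201 held 23.4%. On the normalized signal UMPS-201 led.

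Other nucleotide enzymes were taken from a list of 24 around the pathway, and all 24 were tested. In edgeR's test of TE, 0 were called at the adjusted threshold. The unadjusted threshold was passed by 2 in the lower direction (6.42% of all genes) and 1 in the higher (6.17%), and the list's median change was 0.15 on the log2 scale. The 3 were ADK, UCKL1 and NT5C2. ADK, which phosphorylates adenosine, had a log2 fold change in TE of -0.92 ± 0.35 (SE, adjusted p = 0.311 by edgeR), with log2 TE of 1.39, 1.65 and 1.79 in DMSO and 1.04, 0.60 and 0.17 in rapamycin. Its cultures did not overlap, and its RF ratio of 0.494 was further from 1 than that of PAICS. UCKL1, a uridine-cytidine kinase-like protein, had -1.11 ± 0.42 in TE with overlapping cultures, and NT5C2, a cytosolic nucleotidase, had 0.62 ± 0.27 (SE). The UCKL1 value moved to -0.53 without rapamycin replicate 1, and each of the 3 unadjusted calls was lost without at least 1 culture and in the fit that pairs both libraries of a culture, with edgeR p-values there of 0.0727 for ADK, 0.347 for UCKL1 and 0.104 for NT5C2. In the Wald test of DESeq2, 4 of the 24 passed the adjusted threshold, 2 lower (4.38% of all genes) and 2 higher (4.93%). These were ADK (-0.87, adjusted p = 0.0014), UCKL1 (-1.13, adjusted p = 0.00533), NT5C2 (0.58, adjusted p = 0.0117) and UCK2, a uridine-cytidine kinase (0.51, adjusted p = 0.0145), all on the log2 scale by DESeq2. UCK2 was named after its values were seen, and edgeR gave it an adjusted p of 0.464.

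The suppliers and branch enzymes chosen by role passed the adjusted threshold in neither edgeR nor DESeq2. PRPS1 and PRPS2, which make the activated ribose phosphate, had log2 fold changes in TE of -0.15 and 0.42. In the guanine and adenine branches, IMPDH1 had 0.17, GMPS -0.30 and ADSS 0.26. CTPS1 and CTPS2, which make cytidine triphosphate, had 0.22 and 0.27, and the salvage enzymes HPRT1 and APRT had -0.31 and 0.15. IMPDH1, the other isozyme of IMP dehydrogenase, had 56 RF counts in all and percentile 1.30 of TE, against percentile 46.2 for IMPDH2. HPRT1, with a mean log2 TE of 1.84, was the pathway gene described here nearest to ATIC, at 2.03. These comparisons of TE between genes also have no length term. For 12 serine and one-carbon enzymes the TE changes had a median of 0.05 on the log2 scale, and 0 had an unadjusted p below 0.05. For 10 glutamine and aspartate enzymes the median was -0.33, with 1 gene higher at that level, GLUD1. DESeq2's Wald test gave 0 calls among the 12, and among the 10 it gave 3 lower (ASNS, GFPT1 and GOT2) and 1 higher (GLUD1), genes named after their values were seen.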

How the data were processed

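PANC-1 cultures were assigned to treatments from their labels. The authors deposited raw counts of uniquely aligned RF and total RNA reads on exons of protein-coding genes (HISAT2 on GRCh37, featureCounts; RF reads first filtered for quality, length and ribosomal RNA). Cufflinks 2.2.1 cuffnorm gave the deposited FPKM and the deposited normalized signal of total RNA genes and isoforms. The authors deposited, in the count table, their own RF over RNA ratio, its log2 fold change and a p-value from RiboDiff, none used here. Versions of the other tools are not given in the sources used here.

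R 4.3.3 was used, with TMM scaling within each library type and edgeR 4.0.16 as the main tool beside DESeq2 1.42.0 and limma 3.58.1. A TE change was tested as the library type by treatment term of a robust quasi-likelihood model (edgeR) over 13329 genes, with Benjamini-Hochberg adjustment over all of them. The edgeR and DESeq2 models of TE used 1 variance term per gene for both library types. A prior count of 2 was added for log2 TE values of single cultures, and FPKM was tested by limma-trend on log2(FPKM + 1) for genes with a mean of at least 1. Tests were tested on simulated data. Annotation was GENCODE's for GRCh37, whose version differs from the authors'.

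The members and lists were chosen with earlier results of these data known. Named genes were the 10 members, 9 pathway genes by role and any other pathway gene with an unadjusted p under 0.05. Alternatives were other scalings, filters, tests, blocks and leaving out each culture. DESeq2's Wald test without each culture, and with a replicate block, was chosen after seeing the data.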

Additional observations from a re-analysis of the deposited data

How the results depend on the processing

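edgeR called 0 of the 10 enzymes in TE, RF and total RNA under every alternative run, and DESeq2's Wald test called 1 in TE, PAICS (0 to 1 without each culture). The median log2 fold change of the enzymes in TE was -0.07, and -0.14 with TMM over all 12 libraries. Without each culture it ranged from -0.22 (without DMSO replicate 2) to 0.17 (without DMSO replicate 3) in TE, and from -0.15 to 0.18 in RF, so its sign is not settled. The count of boundaries free of overlap in the order of RF density was 2 by coding length and 1 by exonic length. The count of leading isoform shares without overlap was 3 on FPKM and 0 on the normalized signal.

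Estimates near 0 changed sign. In TE these were ADSL (0.017) and UMPS (0.012) with a minimum of 1 count, GART (-0.023) with TMM over all libraries, and ADSL with limma voom (0.12) or a culture block (0.035). PFAS in total RNA was 0.0075 with a minimum of 60 counts, and on the normalized signal DHODH was -0.0059 and PFAS -0.020. The cause of these changes was not tested.

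Without each culture in turn, log2 fold changes in TE ranged from -0.20 to 0.29 for GART, -0.77 to 0.22 for PFAS, -0.26 to 0.37 for ADSL, -0.31 to 0.17 for ATIC and -0.51 to 0.50 for UMPS. DHODH ranged from -0.016 to 10.74, and the upper value rests on 0 DMSO RF counts and is no bound. For the other pathway genes the range was -0.49 to 1.77 for PRPS2, -0.44 to 1.40 for IMPDH1, -0.075 to 0.50 for ADSS, -0.54 to 1.10 for CTPS2 -0.10 to 0.26 for APRT, -1.35 to -0.53 for UCKL1, -1.19 to -0.79 for ADK, 0.41 to 0.74 for NT5C2 and -0.82 to -0.055 for HPRT1. UCKL1 had -0.75 with a replicate block and -0.89 with a minimum of 60 counts, with unadjusted p-values of 0.242 and 0.133 by edgeR. In RF it was -0.23 to 0.19 for GART, -0.64 to 0.17 for PFAS, -0.28 to 0.27 for ADSL, -0.14 to 0.29 for ATIC, -0.20 to 0.011 for CAD and -0.58 to 0.29 for UMPS. In total RNA it was -0.056 to 0.00042 for PPAT, -0.019 to 0.010 for PFAS, -0.067 to 0.28 for ATIC, -0.0075 to 0.13 for CAD and -0.075 to 0.062 for DHODH, and on log2(FPKM + 1) -0.12 to 0.42 for ATIC and -0.012 to 0.17 for CAD.

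Same-numbered deviations correlated between -0.13 and -0.06 in RF and between -0.03 and 0.02 in total RNA. Those with different numbers correlated between -0.06 and 0.12 in RF and between -0.07 and 0.09 in total RNA. These values gave no sign of pairing by replicate number, but they cannot show that same-numbered cultures were handled apart. With a replicate block, edgeR called 0 enzymes in TE and PAICS had a log2 fold change of -0.50, and DESeq2 with the block gave PAICS -0.53 with an adjusted p of 0.464.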
